A study of Danio rerio with 54 samples.

Results

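The comparison described here asked whether zebrafish embryos without a working nfe2 gene changed their transcripts after tert-butyl hydroperoxide (tBOOH) in another way than wildtype embryos did at 96 hours post fertilisation (hpf). It took in 12 of the 54 libraries of the study, taken by their labelled genotype, treatment and stage. There were 3 libraries each of knockout embryos given tBOOH, knockout embryos in water, wildtype embryos given tBOOH and wildtype embryos in water. Each library came from whole embryos pooled by 30. Dosing with 1 mM tBOOH lasted 4 h and was followed by 4 h in clean medium, so the treatment protocol puts freezing 8 h after the start of dosing, while the sample descriptions give 96 hpf as the sampling time. The knockout carried an 8-base deletion in exon 3 of nfe2, made with a pair of TAL effector nucleases (TALENs) in embryos of mixed AB and TL ancestry, and the sample descriptions call it AB. The wildtype was the AB strain. Genotype and strain background therefore cannot be told apart. The knockout line carries the deletion of a single founder. Eggs came from several group breedings, and the labels do not say whether each pool came from a separate one.

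Nfe2 belongs to the cap'n'collar (CNC) family of basic leucine zipper transcription factors. These proteins pair with small Maf proteins and bind antioxidant response elements, near genes for glutathione enzymes, thioredoxin and ferritin. In mammals Nfe2 is best known from platelet formation and from globin genes in red cells, while its relative Nrf2 (nfe2l2a in zebrafish) carries most of the response to oxidants. The organic peroxide tBOOH is used as a model oxidant: it consumes glutathione and damages lipids and proteins.

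The lesion that defines the knockout is shown by its target sites and by the bases lost, as the study's labels give them. Capitals mark the 5 bases that end the deletion and also begin the second target site.
first TALEN target: tcacccacctcttatgag
second TALEN target: CATGActacacgtggtca
deleted bases: gcaCATGA
The deletion shifts the reading frame. The nfe2 mRNA (ENSDARG00000020606) had 0 to 4 reads in each 96 hpf library of either genotype, too few to test, and its level checks neither the genotype nor the protein.

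Values are normalised read counts, that is reads per gene scaled by a size factor for the library. The 18 libraries of the 96 hpf series, which also holds diquat groups, had 532637 to 861615 reads in genes. For each gene the difference is the log2 change with tBOOH in the knockout minus that in the wildtype, taken on log2(value + 1), which understates changes of low genes. A positive difference means a change further upward in the knockout. Errors of log2 values are SE and those of means SD (n = 3), and a call is an adjusted p under 0.05 (limma, Benjamini-Hochberg over 11436 genes). The p-values measure spread between pools. Knockout tBOOH replicate 1 stood apart, with a size factor of 0.661, the lowest of the 12 libraries, and a mean correlation of 0.904 with the other libraries of its group, against 0.923 and 0.922 for replicates 2 and 3 and 0.934 to 0.941 for the 9 libraries of the other groups compared. Knockout diquat replicate 2 had 0.571 and 0.868. It enters the difference in the tBOOH response only through the estimate of spread, and the comparison of tBOOH with diquat directly. Values without these 2 libraries stand beside the main results.

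The whole embryos carried the transcripts of each tissue looked for. Of 25 defining markers, 21 had a read in all 12 libraries, and hbbe1.1, hbae3, mpeg1.1 and mpx, of red cells, macrophages and neutrophils, were at 0 in at least 1. The macrophage marker mpeg1.1 was at 0 in all 3 knockout tBOOH libraries. The genotypes differed before any oxidant: 2635 genes (23% of those tested) passed the test between knockout and wildtype water, 1134 of them higher (9.92%) and 1501 lower (13.1%) in the knockout. In tBOOH 2370 genes (20.7%) passed, 1146 of them higher (10%) and 1224 lower (10.7%). Without the 2 libraries that stood apart, 3467 genes passed in water and 2856 in tBOOH. Villin of the intestine (vil1) averaged 16.7 in knockout water and 171 in wildtype water, and the carboxypeptidase gene cpa5 of the pancreas averaged 2.92 and 107. In whole embryos, fewer cells of a type and less RNA per cell cannot be told apart.

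Of the 11436 genes, 37 (0.324%) changed differently with tBOOH in the 2 genotypes, and all 37 differences were positive, between 1.3 and 3.64 on the log2 scale. The calls of 2 of the 37, among them the gene at 3.64, lend no support. These 2 passed the filter on low values (10 or more in at least 3 libraries) only through the knockout tBOOH group. They included digestive enzymes of the exocrine pancreas, the AP-1 gene fosab, ferritin-like genes, the heme synthesis gene alas2 and glutathione transferases. Most of the 37 genes also passed as lower in knockout water than in wildtype water, where 13.1% of all genes did. A positive difference therefore does not by itself mean a higher level in knockout tBOOH than in wildtype tBOOH. The same water libraries enter both tests, and a low value in knockout water raises the difference. The share lower in water is thus not a separate result about these genes. No gene had a negative difference past the test in the main limma fit, edgeR or DESeq2. Some other limma settings did call negative differences, as listed in the last section. At an unadjusted p under 0.05 the main fit had 249 negative differences, against 500 positive ones. The number of calls was 57 with edgeR and 47 with DESeq2, all positive. Without the 2 libraries that stood apart there were 86 calls, 74 positive and 12 negative, and 35 of the 37 were kept. The count was 23 without wildtype water replicate 1 and 24 without wildtype tBOOH replicate 1.

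The tBOOH response itself had 857 calls in the knockout (7.49%), 624 higher (5.46%) and 233 lower (2.04%) than in water, and 263 in the wildtype (2.3%), 175 higher (1.53%) and 88 lower (0.769%). The pooled fit gives both genotypes 1 estimate of spread, although replicates varied more in knockout tBOOH (mean chi-square per degree of freedom 3.77) than in knockout water (1.70) and the wildtype groups (1.51 to 1.67). Knockout diquat, which feeds the same estimate, varied most (8.97). Fitted on the compared groups alone, the knockout had 810 and the wildtype 703, and without the 2 libraries that stood apart they had 1103 and 482.

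**Figure D1:**
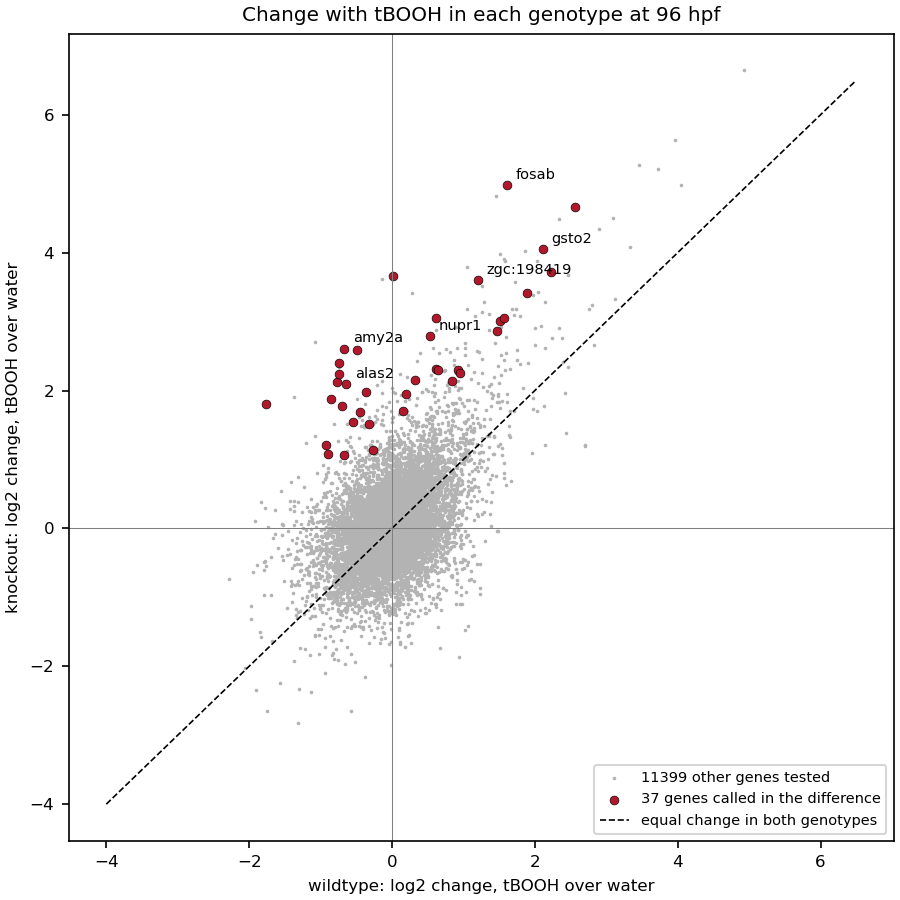
Log2 change with tBOOH over water in the knockout (vertical axis) against that in the wildtype (horizontal axis) for each of the 11436 genes tested at 96 hpf. The 37 genes called in the difference (red) all lie above the dashed line of equal change, some with a wildtype change near or under 0.

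The difference with the smallest p, though not the largest, was in fosab, which encodes a Fos protein. Fos pairs with Jun to form AP-1, and its gene is an immediate early gene, switched on within minutes of many stimuli. It belonged to the abundant one (ENSDARG00000097234) of the 2 entries under this symbol. This entry had 629, 768 and 1110.4 counts in knockout tBOOH libraries, against 25.2, 18.8 and 32.4 in knockout water. In the wildtype it had 228, 123 and 322 in tBOOH, against 63.9, 73.1 and 65.3 in water. All knockout tBOOH libraries lay above every wildtype tBOOH library, and all knockout water libraries lay below every wildtype water library. It rose by 4.97 ± 0.28 in the knockout (adjusted p = 2.07e-13) and by 1.62 ± 0.28 in the wildtype (adjusted p = 0.000831). The difference was 3.36 ± 0.40 (adjusted p = 3.5e-05), and 3.54 without the 2 libraries that stood apart. Its call held in each of 12 fits that left out 1 library.

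The other fosab entry (ENSDARG00000031683) had 30.3, 30.6 and 56.2 in knockout tBOOH and 1.1, 3.13 and 2.23 in knockout water. Wildtype embryos had 2.2, 3.27 and 4.24 in tBOOH and 2.1, 4.30 and 3.21 in water. It was high in the 3 knockout tBOOH libraries and under 5 in the other 9. It is among the 37 genes, but it passed the filter on low values only through the knockout tBOOH group, so its call lends no support and its difference of 3.64 is given as a description. Of the 37, 1 other gene, ADAMTS1, passed the filter only in that way. How reads were shared between the 2 entries is not given in the sources used here, so their separate levels are uncertain.

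The 2 fosab entries were the calls among the 33 tested immediate early genes, where 0.324% of all genes were called. The rarer entry, which passed the filter only through the knockout tBOOH group, lends no support to the counts of this list, although they include it. Whether members without a call passed the filter only in that way was not checked, here or in the other lists. The counts and medians of the lists are therefore given as description only. Of the 33, 31 had a positive difference (median 0.78, against 0.02 over all genes tested). Of the 33, 20 rose in the knockout, where 5.46% of all genes did, and 4 in the wildtype, where 1.53% did. Leaving out any knockout tBOOH library left 1 call, since the rarer fosab entry then missed the filter. Fitting the compared groups alone gave 6, and leaving out both libraries that stood apart gave 3. Both settings also called more than 0.324% of all genes, with counts given in the last section. The following members, named after their values were seen, did not pass the test of the difference. The stress transcription factor atf3 averaged 73.3 ± 16.6 in knockout tBOOH and 4.00 ± 0.748 in knockout water, against 33.6 ± 7.39 in wildtype tBOOH and 8.12 ± 4.88 in wildtype water (difference 1.86 ± 0.50, adjusted p = 0.147). The survival gene mcl1a had 84.7, 79.3 and 88.7 in knockout tBOOH, 16.5, 18.8 and 14.5 in knockout water, 39.7, 31.6 and 37.1 in wildtype tBOOH and 16.8, 25.8 and 22.5 in wildtype water. Its 3 knockout tBOOH libraries were above all others, and its difference of 1.56 ± 0.36 narrowly missed the threshold (adjusted p = 0.0536). For btg2, which restrains proliferation, the difference was 1.89 ± 0.57 (adjusted p = 0.24). The summed level of the 33 genes was 1770.2, 2139 and 2775 in knockout tBOOH and 514, 530.5 and 545 in knockout water, against 1105, 914 and 1233 in wildtype tBOOH and 583, 673 and 625 in wildtype water.

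**Figure D2:**
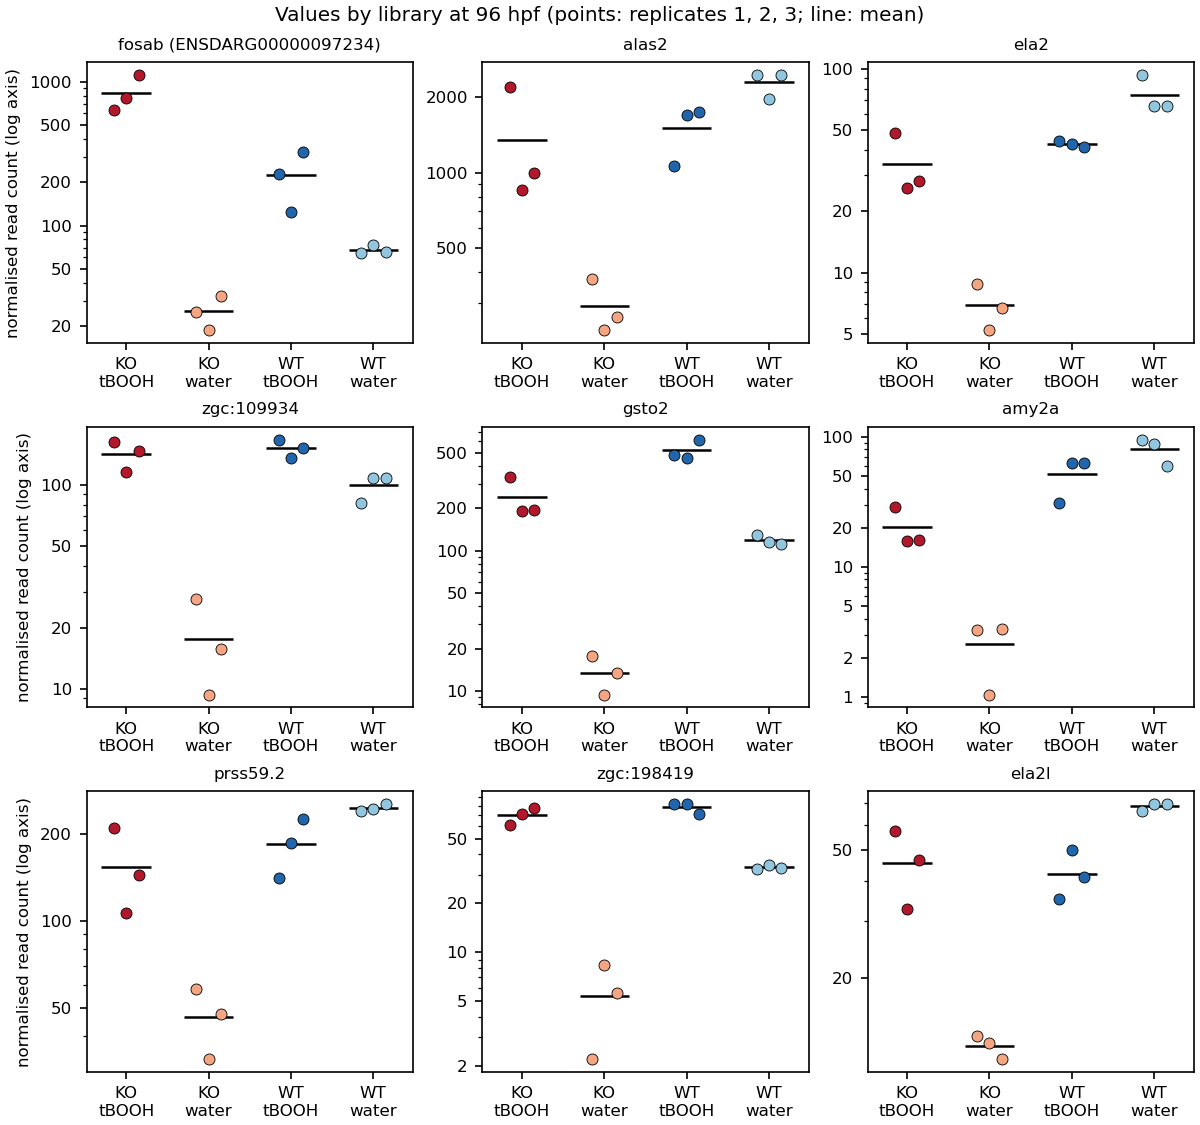
Normalised read counts (log axis) of 9 genes named by rule, those with the smallest p in the difference, in the 12 libraries at 96 hpf. Each point is 1 library and each line the mean of 3. The 3 knockout water libraries are the lowest in all 9 panels, and the knockout tBOOH libraries overlap those of wildtype tBOOH in 6.

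Digestive enzyme genes of the exocrine pancreas, the tissue that makes zymogens for the gut, formed the largest named group of calls. Of 17 tested members 8 passed the test of the difference, where 0.324% of all genes did, and all 17 had a positive difference (median 1.98). Without the 2 libraries that stood apart 8 passed as well (median 1.64), and leaving out single libraries gave 5 to 8, with 5 without wildtype water replicate 1, wildtype tBOOH replicate 1, knockout water replicate 3 or knockout tBOOH replicate 1. Against water, 8 rose in the knockout, where 5.46% of all genes did, and none fell. In the wildtype none rose and 1 fell, and 2.3% of all genes passed there. In water 16 of the 17 were lower in the knockout than in the wildtype, where 13.1% of all genes were.

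The elastase gene ela2 had 48.4, 26.1 and 28.1 counts in knockout tBOOH and 8.78, 5.22 and 6.69 in knockout water. In the wildtype it had 44.1, 42.5 and 41.3 in tBOOH and 93.3, 65.3 and 65.3 in water. Knockout libraries were thus low in water and overlapped wildtype libraries in tBOOH. The change was 2.13 ± 0.30 in the knockout (adjusted p = 1.41e-05) and -0.77 ± 0.30 in the wildtype, which did not pass (adjusted p = 0.269). The difference was 2.90 ± 0.43 (adjusted p = 0.000605).

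The amylase gene amy2a had 28.7, 15.9 and 16.2 in knockout tBOOH and 3.29, 1.04 and 3.35 in knockout water, against 30.9, 63.3 and 62.5 in wildtype tBOOH and 95.4, 87.7 and 60.0 in wildtype water. Its difference was 3.27 ± 0.53 (adjusted p = 0.00124), and its level in tBOOH remained lower in the knockout (log2 -1.3 ± 0.37, adjusted p = 0.0129). The amy2a counts in knockout water were near the floor. Across 10 alternatives, besides the fits that left out 1 library, the amy2a difference ran from 2.34 to 3.61. The trypsin-family gene prss59.2 had 210.3, 106 and 144 in knockout tBOOH and 58.2, 33.4 and 48.0 in knockout water, against 141, 187 and 226 in wildtype tBOOH and 241, 244 and 254 in wildtype water (difference 2.12 ± 0.34, adjusted p = 0.00126). Replicate 1 was the highest of the 3 knockout tBOOH libraries for ela2, amy2a and prss59.2, and without that library alone their differences were 2.63, 3.01 and 1.87 and still passed. For a second elastase gene, ela2l, the means were 45.6 ± 12.3 in knockout tBOOH and 12.3 ± 1.03 in knockout water, against 42.3 ± 7.5 in wildtype tBOOH and 68.4 ± 2.09 in wildtype water (difference 2.47 ± 0.43, adjusted p = 0.00372).

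The next calls were less firm. The carboxypeptidase gene cpa5 averaged 17.2 ± 8.79 in knockout tBOOH and 2.92 ± 3.18 in knockout water, against 67.3 ± 26.8 in wildtype tBOOH and 107 ± 19.5 in wildtype water (difference 3.15 ± 0.62, adjusted p = 0.0104). The second trypsin-family gene, prss59.1, had a difference of 1.98 ± 0.39 (adjusted p = 0.0116) and the chymotrypsin-like gene ctrl one of 2.34 ± 0.53 (adjusted p = 0.0439). Outside the list, the elastase entry CELA1 (1 to many) (ENSDARG00000017314) had 2.74 ± 0.56 (adjusted p = 0.0164). The gene pdia2, a disulfide isomerase that in mammals is made mainly in the pancreas, had 2.09 ± 0.45 (adjusted p = 0.0304). Leaving out single libraries ended the call of cpa5 in 4 of 12 fits, of prss59.1 and CELA1 in 5, of pdia2 in 6 and of ctrl in 9, with adjusted p of up to 0.0728, 0.0728, 0.0948, 0.156 and 0.201. Without knockout tBOOH replicate 1 none of these 5 passed, while all 5 passed without both libraries that stood apart. The digestive enzymes are encoded by families of similar genes, so reads may be split among their members.

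The largest difference in the list belonged to zgc:136461 (ctrb.2, a chymotrypsinogen gene), which the naming rule left out. It had 25.7, 20.4 and 14.1 in knockout tBOOH and 7.68, 6.27 and 2.23 in knockout water, against 4.41, 13.1 and 13.8 in wildtype tBOOH and 35.6, 38.7 and 28.9 in wildtype water. It rose by 1.80 ± 0.46 in the knockout (adjusted p = 0.0116) and fell by 1.76 in the wildtype (SE 0.46, adjusted p = 0.0335), where it was the member that fell. The difference of 3.56 ± 0.65 (adjusted p = 0.00557) kept its call in all 12 fits without a library. The remaining 9 members did not pass the test of the difference. The main trypsin gene, deposited as try, averaged 159.9 in knockout tBOOH and 107 in knockout water, against 165 in wildtype tBOOH and 220.2 in wildtype water (difference 1.00 ± 0.34, adjusted p = 0.422). The bile salt lipase gene cel.1 had the smallest difference, 0.16 ± 0.56, with a 95% interval of -0.99 to 1.3. The summed level of the 17 genes was 977, 538 and 628 in knockout tBOOH and 369.9, 281 and 310.1 in knockout water, against 690.1, 1015 and 1088 in wildtype tBOOH and 1565, 1323 and 1369.8 in wildtype water. The knockout tBOOH libraries were above the knockout water libraries, and the wildtype tBOOH libraries were below those in wildtype water.

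**Figure D3:**
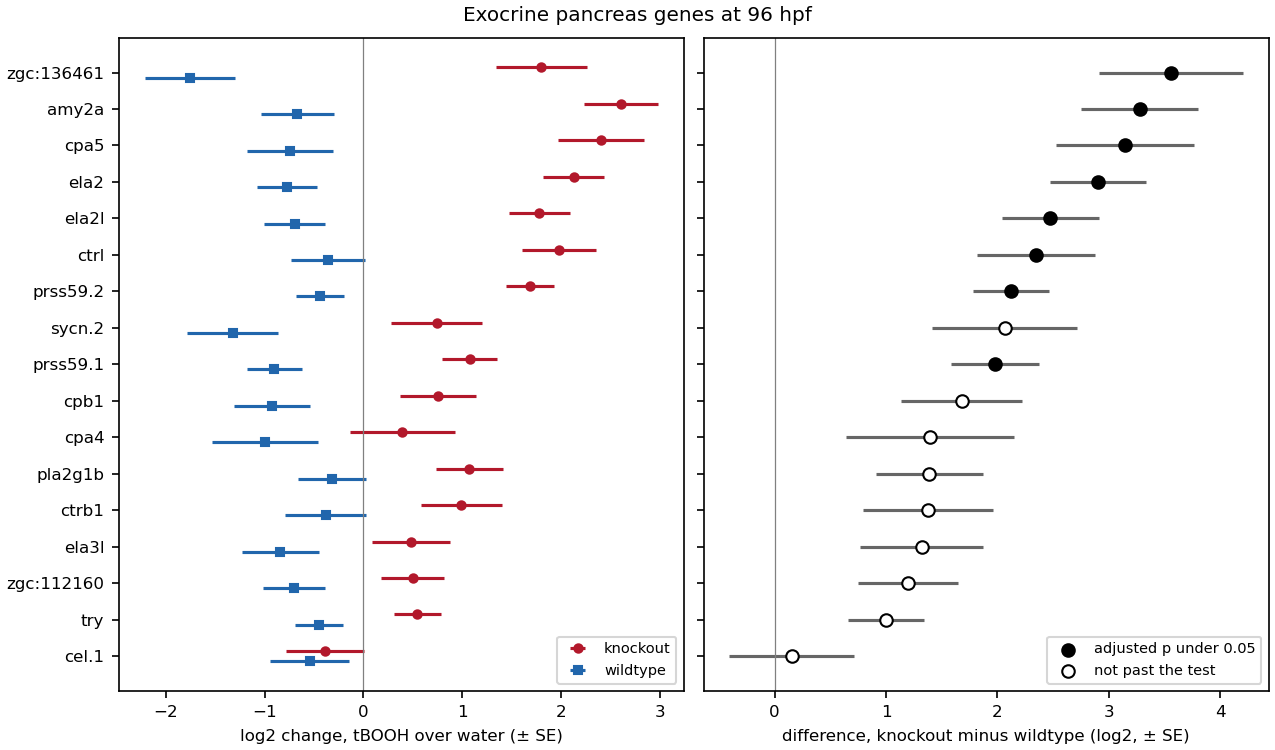
Log2 change with tBOOH over water in knockout and wildtype (left) and the difference between them (right) for the 17 tested exocrine pancreas genes, with SE. The 8 filled points passed the test, and all 17 differences lie above 0.

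Genes of the intestine and the liver had no call, and most had a positive difference. Among 30 tested intestine genes 28 had a positive difference (median 0.91), and among 51 liver genes 45 did (median 0.68). The same held outside the digestive organs: lens and other crystallin genes had no call, and 41 of 45 were positive (median 0.76). Over all 11436 genes 5874 had a positive difference (median 0.02). In knockout tBOOH 6 intestine and 15 liver genes were higher than in knockout water, where 5.46% of all genes were. In water 24 and 45 of these lists were lower in the knockout, where 13.1% of all genes were. The fatty acid binding protein gene fabp1b.1, named after its values were seen, had 49.9, 45.3 and 54.1 in knockout tBOOH and 15.4, 15.7 and 15.6 in knockout water, against 104, 137 and 130.3 in wildtype tBOOH and 169, 128 and 170.3 in wildtype water. Its difference of 1.94 ± 0.45 did not pass (adjusted p = 0.0536). Depending on the alternative, 0 to 6 intestine genes, 0 to 7 liver genes and 0 to 13 of 45 lens genes passed, besides the fits that left out 1 library. The highest of these counts came in settings that also called more of all genes than the 0.324% of the main fit. Library quality weights and the compared groups alone each gave 6 intestine and 7 liver calls. They gave 1 and 4 lens calls. The counts over all genes in these settings are given in the last section and were not compared with those of the lists.

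Iron and heme genes gave 2 calls among 18 tested members, where 0.324% of all genes were called (median difference 0.48). Both were ferritin heavy-chain-like. Library weights gave 4, in a setting that also called more than 0.324% of all genes, with the count given in the last section. Ferritin stores iron and so keeps it from reacting with peroxides. The gene zgc:109934 (fthl31 in the reference table) had 162, 116 and 147 counts in knockout tBOOH and 27.4, 9.40 and 15.6 in knockout water, against 166, 135 and 152 in wildtype tBOOH and 81.7, 107 and 108 in wildtype water. The genotypes overlapped in tBOOH and were apart in water. Its difference was 2.44 ± 0.36 (adjusted p = 0.000605), and 2.34 without the 2 libraries that stood apart. The gene zgc:198419 (fthl28) had 60.5, 71.4 and 77.8 in knockout tBOOH and 2.2, 8.35 and 5.58 in knockout water, against 81.6, 81.8 and 71.0 in wildtype tBOOH and 32.5, 34.4 and 33.2 in wildtype water. It rose in both genotypes, by 3.60 ± 0.28 in the knockout and 1.2 ± 0.28 in the wildtype (adjusted p = 2.57e-10 and 0.0165), with a difference of 2.4 ± 0.40 (adjusted p = 0.00191) that came to 2.5 without those libraries. The main ferritin heavy chain gene, fth1a, averaged 383 ± 139 in knockout tBOOH and 159 ± 9.74 in knockout water, against 407 ± 53.9 in wildtype tBOOH and 249 ± 21.5 in wildtype water. Its difference of 0.50 ± 0.28 did not pass (95% interval -0.06 to 1.07, adjusted p = 0.835).

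The erythroid enzyme gene alas2, whose product starts heme synthesis in red cells, had 2191, 849 and 993 counts in knockout tBOOH and 375, 235 and 265 in knockout water. In the wildtype it had 1058, 1702 and 1738 in tBOOH and 2451, 1970.5 and 2453 in water. Knockout water libraries were far below all others, and the 2 genotypes overlapped in tBOOH. The change was 2.1 ± 0.28 in the knockout (adjusted p = 4.66e-06) and -0.64 ± 0.28 in the wildtype (adjusted p = 0.345). The difference of 2.74 ± 0.39 (adjusted p = 0.000605) was 2.32 without knockout tBOOH replicate 1, the highest library of its group. No other of the 12 tested erythroid genes was called. Over all genes 0.324% were called, and the median of the erythroid list was -0.12. Of the 12 genes, 5 had a positive difference. The embryonic globin gene hbz averaged 92.2 ± 41.0 in knockout tBOOH and 178 ± 40.0 in knockout water. In the wildtype it averaged 491 ± 81.4 in tBOOH and 553 ± 64.0 in water. Its difference of -0.82 ± 0.42 did not pass (adjusted p = 0.802), so its sign is uncertain.

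Glutathione enzymes gave 2 calls among 27 tested members, where 0.324% of all genes were called (median difference 0.45). Both encode glutathione transferases, and both rose in each genotype. The omega-class gene gsto2 had 334, 193 and 194 counts in knockout tBOOH and 17.6, 9.40 and 13.4 in knockout water, against 483, 460.4 and 619.8 in wildtype tBOOH and 129.9, 115 and 111 in wildtype water. The knockout was below the wildtype in either condition, and by a smaller log2 margin in tBOOH (-1.15 ± 0.22) than in water (-3.09 ± 0.22). It rose by 4.05 ± 0.22 in the knockout (adjusted p = 5.87e-14) and by 2.11 ± 0.22 in the wildtype (adjusted p = 2.47e-07). The difference was 1.94 ± 0.30 (adjusted p = 0.000951), and 1.67 without the 2 libraries that stood apart. The microsomal transferase gene zgc:158387 (mgst3b) averaged 176 ± 46.9 in knockout tBOOH and 21.3 ± 9.24 in knockout water, against 323 ± 45.8 in wildtype tBOOH and 109 ± 18.5 in wildtype water. Its difference of 1.48 ± 0.33 (adjusted p = 0.0439) lost its call in 9 of the 12 fits without a library, without the filter on low values and with TMM rescaling.

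Of 30 tested classical Nrf2-type antioxidant genes, 15 rose in the knockout, where 5.46% of all genes did, and 9 in the wildtype, where 1.53% did. None fell, and none passed the test of the difference. The median of the difference was 0.27, and at most 2 passed under any alternative. The following genes were named after their values were seen. Thioredoxin (txn), which reduces oxidised proteins, had 242, 225 and 215 in knockout tBOOH and 23.1, 23.0 and 23.4 in knockout water, against 391, 311 and 375 in wildtype tBOOH and 55.5, 45.6 and 51.4 in wildtype water. Every tBOOH library was above every water library. It rose by 3.24 ± 0.24 in the knockout and 2.79 ± 0.24 in the wildtype, and the 95% interval of the difference ran from -0.25 to 1.15 (adjusted p = 0.922). The transferase gene gstp1 had a difference of 0.59 ± 0.24 (interval 0.10 to 1.09, adjusted p = 0.652) and the peroxiredoxin gene prdx1 one of 0.76 ± 0.32 (interval 0.11 to 1.41, adjusted p = 0.654). The autophagy receptor gene sqstm1, itself a target of Nrf2, came nearest to a call (1.34 ± 0.31, adjusted p = 0.0536), with 66.6, 85.0 and 81.1 in knockout tBOOH and 11.0, 11.5 and 14.5 in knockout water, against 136, 98.2 and 136 in wildtype tBOOH and 39.8, 61.0 and 56.8 in wildtype water. In water 22 of the 30 were lower in the knockout, where 13.1% of all genes were. Heme oxygenase (hmox1a), often used as a marker of such a response, passed in neither genotype (difference -1.07 ± 0.62, adjusted p = 0.85).

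None of the 9 tested CNC family members and partners passed the test of the difference. The Nrf2 gene nfe2l2a had 99.9, 71.4 and 66.0 in knockout tBOOH and 47.2, 49.1 and 35.7 in knockout water, against 118, 112 and 125 in wildtype tBOOH and 81.7, 92.8 and 75.0 in wildtype water. It rose by 0.82 ± 0.20 in the knockout (adjusted p = 0.00965), the wildtype change of 0.51 ± 0.20 did not pass (adjusted p = 0.277), and the difference was 0.31 ± 0.29, with a 95% interval of -0.28 to 0.90. In the knockout nfe2l1a and maff rose as well (2.03 ± 0.42 and 1.29 ± 0.29, adjusted p = 0.00149 and 0.00355), and in the wildtype none of the 9 passed. The difference was 1.09 ± 0.59 for nfe2l1a, -0.13 ± 0.37 for nfe2l3 and -0.33 ± 0.50 for nfe2l1b, all relatives of nfe2. It was 0.50 ± 0.41 for maff, a small Maf partner, -0.54 ± 0.42 and 0.64 ± 0.60 for keap1b and keap1a, which hold Nrf2 in check, and -0.20 ± 0.47 and -0.32 ± 0.40 for the repressors bach1b and bach2b. All 9 adjusted p lay at 0.831 or above.

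Heat shock proteins, the chaperones made when proteins misfold, rose in 19 of 50 cases in the knockout (5.46% of all genes) and in 12 in the wildtype (1.53% of all genes), with a median difference of 0.37 and no call. The chaperone gene hsp70l had 160.4, 269 and 307 in knockout tBOOH and 3.29, 7.31 and 5.58 in knockout water, against 46.3, 58.9 and 91.1 in wildtype tBOOH and 4.19, 11.2 and 2.14 in wildtype water. All 3 knockout tBOOH libraries were above all wildtype tBOOH libraries, and the water groups overlapped. The difference was 1.81 ± 0.59 (adjusted p = 0.349). For hsp90aa1.1 the means were 334 ± 64.3 in knockout tBOOH and 58.5 ± 18 in knockout water, against 90.8 ± 24.5 in wildtype tBOOH and 44.7 ± 14.5 in wildtype water (difference 1.5 ± 0.35, adjusted p = 0.0536). These genes were named after their values were seen. Whether other members of this list passed the filter on low values only through the knockout tBOOH group was not checked. Fitted on the compared groups alone, 4 heat shock genes had a positive and 1 a negative call. That fit also called more of all genes than the 0.324% of the main fit, with the count given in the last section.

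The stress gene nupr1 was the only call among 35 tested members of the amino acid stress response list, where 0.324% of all genes were called. It had 207, 94.0 and 124 in knockout tBOOH and 19.8, 20.9 and 15.6 in knockout water, against 89.3, 55.6 and 91.1 in wildtype tBOOH and 57.6, 50.7 and 50.3 in wildtype water. It encodes a small chromatin protein induced by many cell stresses. Every knockout library was below the wildtype libraries in water and above them in tBOOH. Its difference was 2.25 ± 0.41 (adjusted p = 0.00562), and 1.94 without the 2 libraries that stood apart. The gene aarsd1, which encodes a protein related to alanyl-tRNA synthetase, averaged 143 ± 60.9 in knockout tBOOH and 29.7 ± 2.37 in knockout water, against 349.8 ± 23.8 in wildtype tBOOH and 279 ± 14.7 in wildtype water. Its difference of 1.83 ± 0.41 (adjusted p = 0.0439) lost its call in 11 of the 12 fits without a library.

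Of the 37 calls, 18 are named by rule and 19 are not, and 11 of these 19 carry clone names. A few of them, chosen after their values were seen, did not pass the test between the genotypes in water. The uncharacterised si:ch73-384n10.3 had 4967, 4705 and 5082 counts in knockout tBOOH and 154, 223 and 211 in knockout water, against 1306, 796 and 1429 in wildtype tBOOH and 196, 217 and 166 in wildtype water (difference 2.09 ± 0.31, adjusted p = 0.000605). The homeobox gene tgif1, a corepressor of TGF-beta signalling, had 1539, 1168 and 1291 in knockout tBOOH and 134, 111 and 126 in knockout water, against 537, 237 and 531 in wildtype tBOOH and 110.0, 104 and 114 in wildtype water (difference 1.53 ± 0.35, adjusted p = 0.0472). For both genes the water groups overlapped, and the knockout tBOOH libraries were above all wildtype tBOOH libraries. For a linker histone gene, h1fx, the means were 284 ± 38.6 in knockout tBOOH and 58.2 ± 0.239 in knockout water. Wildtype means were 95 ± 21.9 in tBOOH and 48.2 ± 9.08 in water (difference 1.3 ± 0.29, adjusted p = 0.0354). The knockout water libraries of h1fx all lay above those of wildtype water, by a margin that did not pass (adjusted p = 0.34).

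In the negative direction the smallest p belonged to 8 genes that did not pass. The glycolytic enzyme gene pfkpb averaged 20.4 ± 5.01 in knockout tBOOH and 41.9 ± 4.09 in knockout water, against 27.8 ± 1.52 in wildtype tBOOH and 21.0 ± 5.28 in wildtype water (difference -1.45 ± 0.35, adjusted p = 0.0704). The collagen chaperone gene serpinh1b had 39.3, 22.7 and 31.4 in knockout tBOOH and 82.3, 92.9 and 92.6 in knockout water, against 26.5, 34.9 and 30.7 in wildtype tBOOH and 29.3, 31.8 and 38.6 in wildtype water (difference -1.41 ± 0.35, adjusted p = 0.0806). Its knockout water libraries stood above the other 9. Without both libraries that stood apart, a setting chosen after seeing the data, serpinh1b passed (-1.59, adjusted p = 0.00681). So did rpp30, a subunit gene of ribonuclease P (-1.2, adjusted p = 0.00249), and pcif1, which encodes a cap methyltransferase (-1.49, adjusted p = 0.044). The endoplasmic reticulum chaperone gene dnajb9b (ENSDARG00000016886) also passed (-2.51, adjusted p = 0.028). In the main fit rpp30, dnajb9b and pcif1 had -0.92 ± 0.28, -2.10 ± 0.65 and -1.20 ± 0.41 (adjusted p = 0.291, 0.295 and 0.415). The gene dnajb9b was near the floor in the wildtype, averaging 3.6 in water and 8.65 in tBOOH, against 150 and 89.1 in the knockout. The other 3 were dnajc8 (-1.12 ± 0.32), rfx2 (-1.11 ± 0.32) and pbrm1 (-1.23 ± 0.39), with adjusted p of 0.184, 0.189 and 0.321.

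**Figure D4:**
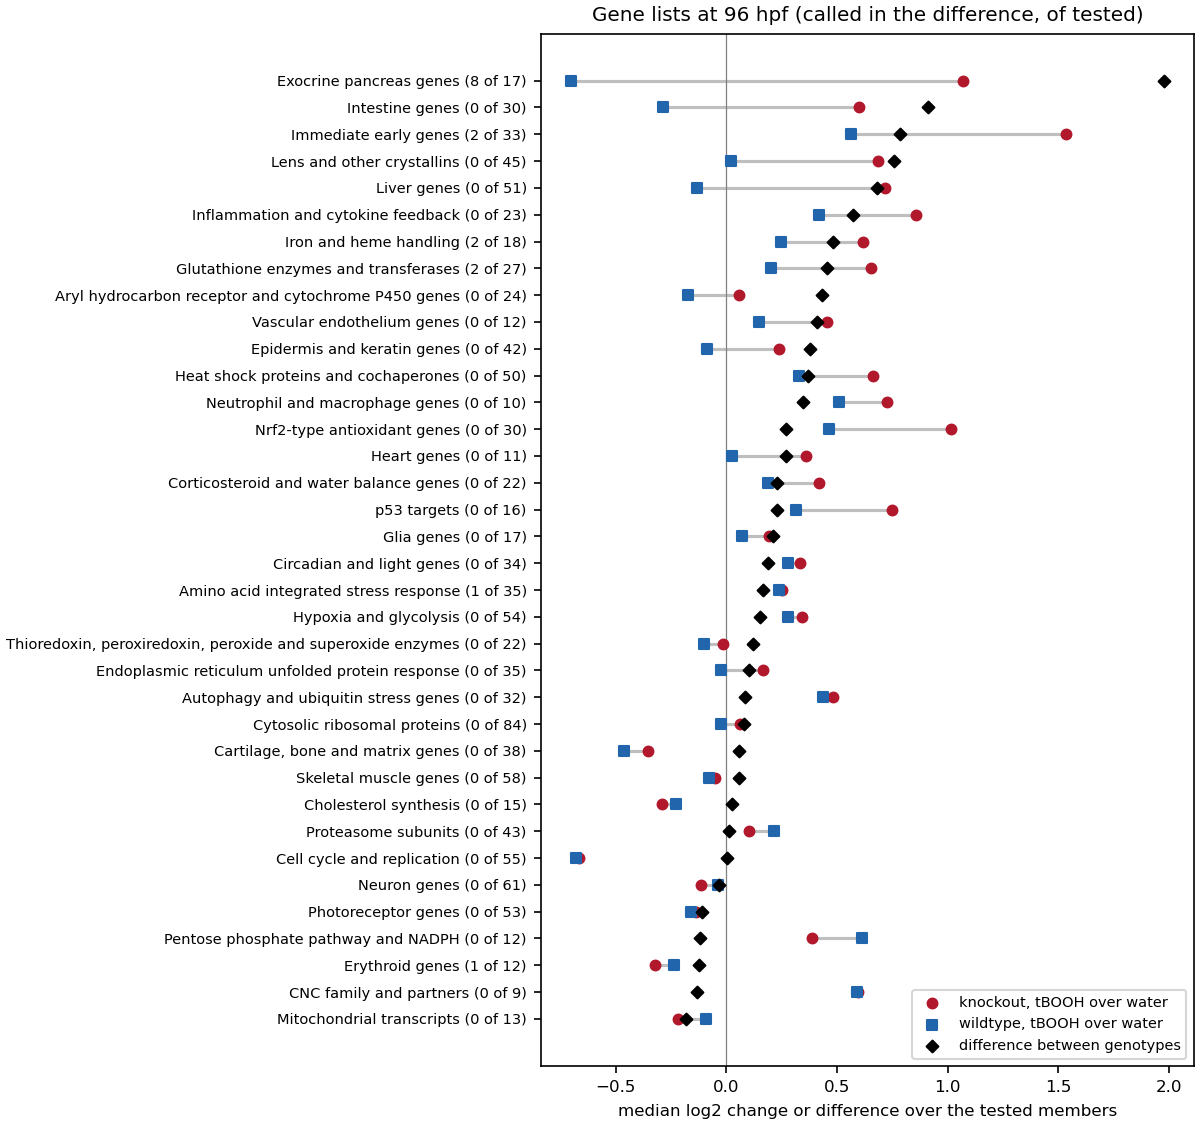
Median log2 change with tBOOH in the knockout and the wildtype, and median difference between them, for the 36 gene lists with at least 5 tested members. The numbers in brackets are members called in the difference of those tested. The exocrine pancreas list has the highest median, 1.98.

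Of the 37 gene lists, 6 held a call: exocrine pancreas, immediate early, iron and heme, glutathione, amino acid stress response and erythroid genes. Of 55 cell cycle genes, 13 fell in the knockout, where 2.04% of all genes did, and 11 in the wildtype, where 0.769% did, with medians of -0.67 and -0.68, and a median difference of 0.003. Medians of the difference were also near that of all genes for proteasome subunits (0.01 over 43), skeletal muscle (0.06 over 58), neurons (-0.04 over 61) and cholesterol synthesis (0.03 over 15).

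Whether the genotype difference was another for tBOOH than for diquat, a redox-cycling herbicide given at 20 µM to other pools of the same stage, was tested by a contrast of the tBOOH and diquat groups, in the same fit, whose water groups enter only the estimate of spread. There were 11 calls (0.0962%), all positive. Of the 37 genes 6 passed, and the 2 contrasts share the tBOOH libraries. The calls included the abundant fosab entry (2.79 ± 0.40, adjusted p = 0.000419) and ela2 (2.29 ± 0.43, adjusted p = 0.0188). Of the 17 exocrine pancreas genes only 1, ela2, was called. For amy2a and prss59.2 this difference did not pass (0.85 ± 0.53 and 0.95 ± 0.34, adjusted p = 0.689 and 0.357). The rarer fosab entry was also among the 11 (3.81 ± 0.71, adjusted p = 0.0188). It passed the filter on low values only through the knockout tBOOH group, so this call lends no support either. The abundant fosab entry had 35.5, 40.3 and 38.8 counts in knockout diquat and 58.6, 109 and 50.9 in wildtype diquat, while tBOOH gave the levels above. The muscle gene tcap, which encodes a sarcomere cap protein, and hsp90aa1.1 were also called (3.07 ± 0.53 and 1.75 ± 0.35, adjusted p = 0.00945 and 0.0296). For gsto2, zgc:198419 and alas2 this difference did not pass (0.89 ± 0.30, 0.95 ± 0.40 and 1.39 ± 0.39, adjusted p = 0.313, 0.481 and 0.184). The count rests on the diquat groups, whose knockout libraries varied most: it was 4 without wildtype diquat replicate 1, wildtype diquat replicate 2 or wildtype tBOOH replicate 2, 6 without knockout tBOOH replicate 3, and 41, 57 and 66 without knockout diquat replicates 1, 2 and 3.

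The same difference was measured at 48 hpf in other pools. Among the 37 genes, 21 were tested there and none passed. The share of all genes called at 48 hpf is not given here, so this count is no result about the 21. Adjusted p at 48 hpf (limma) was 0.749 for alas2, the abundant fosab entry and si:ch73-384n10.3 alike. The fit across both stages called 2 of 12255 genes (0.0163%), while edgeR called 1 and DESeq2 none (603 genes had an unadjusted p under 0.05 in limma). For alas2 the difference was 2.74 ± 0.39 at 96 hpf and -1.42 ± 0.56 at 48 hpf, and the stages differed by 4.16 ± 0.67 (adjusted p = 0.00305), which did not pass with edgeR or DESeq2 (adjusted p = 0.105 and 0.106). For zgc:198419 it was 2.4 ± 0.40 at 96 hpf and -1.75 ± 0.63 at 48 hpf. The stages differed by 4.15 ± 0.68 for this gene (adjusted p = 0.00305). That passed with edgeR (adjusted p = 0.043) and did not with DESeq2 (adjusted p = 0.197). On log2(value + 5) the stages differed by 2.31 for zgc:198419 and by 3.36 for alas2 (limma, adjusted p = 0.0351 and 0.00167). The abundant fosab entry had 3.36 ± 0.40 at 96 hpf and 2.37 ± 0.93 at 48 hpf, and si:ch73-384n10.3 had 2.09 ± 0.31 and 2.44 ± 0.89, with no call between stages. Of the 21 genes, 14 had a positive difference at 48 hpf and 7 a negative one, with no share over all genes to set beside this. Standard errors were larger at 48 hpf for 20 of the 21, so a missing call there does not show that the genotypes responded alike.

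**Figure D5:**
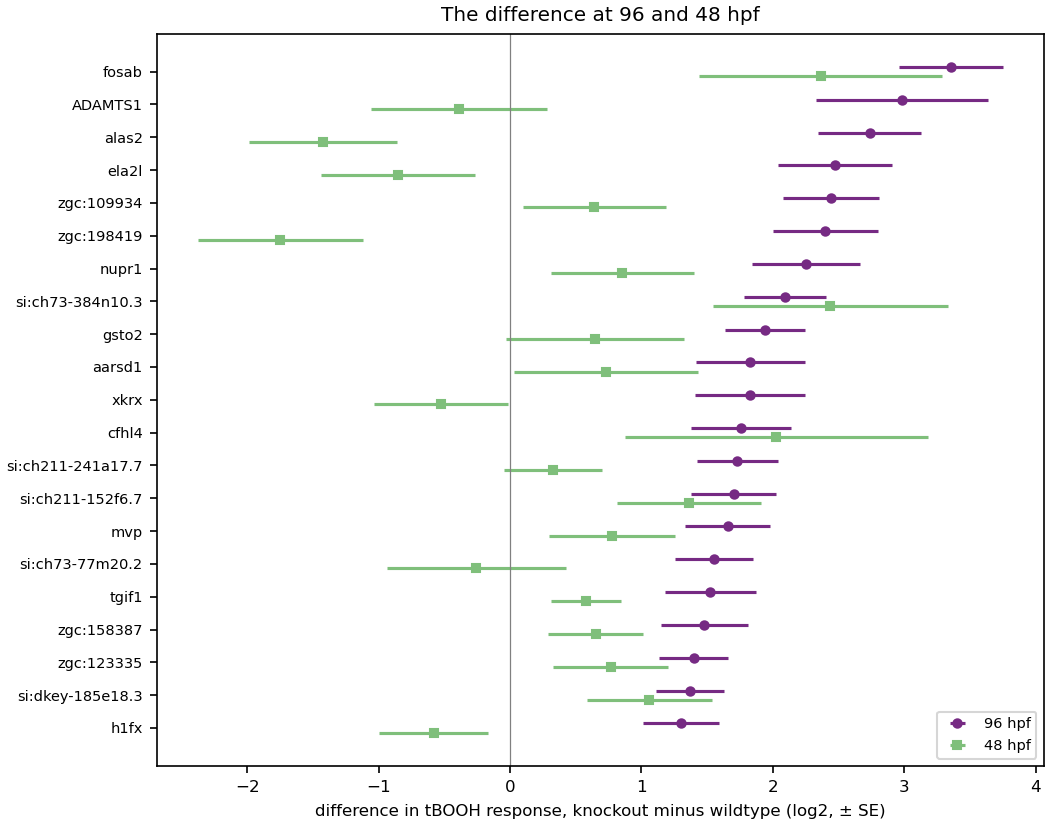
Difference in the tBOOH response, knockout minus wildtype, at 96 hpf (circles) and 48 hpf (squares) with SE, for the 21 of the 37 called genes that were tested at both stages. At 48 hpf 7 genes lie below 0, alas2 and zgc:198419 the furthest, and 20 of the 21 bars are longer than at 96 hpf.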

How the data were processed

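Per the labels' protocols, strand-specific poly(A) libraries gave paired reads of 50 bp. The submitters' processing notes name FastQC 0.11.4, Bowtie2 2.2.5, TopHat2 2.0.14, HTSeq (version and strand setting not given in the sources used here), DESeq2 1.10.1 and the GRCz10 genome. The deposited values are a signal: gene counts that the authors divided by 1 size factor per library. In each of the 54 columns 100% of values were whole multiples (within 0.01 read) of 1 step, so whole reads were recovered; they had a median of 740192.5 per 96 hpf library, far below the depth stated in the labels, which limits precision for low genes.

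With limma 3.58.1 (R 4.3.3, mean trend), log2(value + 1) was modelled by group, fitted to the 18 libraries of the 96 hpf series, for 11436 genes with 10 or more in at least 3 libraries, and to 36 libraries for stages. On whole reads edgeR 4.0.16 called 57 and DESeq2 1.42.0 called 47 genes. Scripts were tested on simulated data.

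The members of the comparison and the 37 gene lists (1532 symbols, 1489 matched) were chosen with earlier results of these data known. Named by rule are the CNC family, the 15 largest differences each way among calls with a mean of 30 or more and no clone name, the 3 top calls within any list, and, with under 5 calls one way, the 8 smallest p. Other named genes were chosen after their values were seen. Of the gene IDs, 3981 share a symbol with another ID.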

Additional observations from a re-analysis of the deposited data

Results flagged for a closer look

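The genotype difference in the tBOOH response at 96 hpf was a test of 2 groups' effects under the same contrast, and 37 genes passed it. The same kind of test between tBOOH and diquat passed 11 genes. The rarer fosab entry is in both counts, although it passed the filter on low values only through the knockout tBOOH group. ADAMTS1, which passed the filter in the same way, is in the count of 37. Between 96 and 48 hpf 2 genes passed, alas2 with a log2 difference of 4.16 and zgc:198419 with 4.15. The stage calls did not hold with every tool: edgeR passed zgc:198419 alone, and DESeq2 passed neither gene.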

How the results depend on the processing

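For the genotype difference at 96 hpf (37 calls), the count was 58 with a pseudocount of 5 (57 positive, 1 negative), 114 with library quality weights (105 and 9), 99 with only the compared groups (95 and 4), 57 with edgeR, 86 without the 2 libraries that stood apart and 136 with only the compared groups and without knockout tBOOH replicate 1 (118 and 18). The last 2 settings were chosen after seeing the data. Leaving out single libraries gave 23 to 38. The wildtype response (263) had 573 calls with weights, 703 with only the compared groups and 482 without the 2 libraries, and 121 to 195 without single libraries. The knockout response (857) had 572 to 720. Knockout against wildtype had 1839 to 2206 calls in water and 1681 to 2171 in tBOOH. The comparison of tBOOH with diquat (11) had 27 with a pseudocount of 5, 58 with weights, 18 with edgeR, 30 with DESeq2 and 113 without the 2 libraries, and 4 to 66 without single libraries. The comparison of stages (2) had 8 with a pseudocount of 5, 5 without the filter on low values, 8 with weights, 1 with edgeR, 0 with DESeq2 and 4 without the 2 libraries, and 2 or 3 without single libraries. The cause of these shifts was not tested. No called gene named by rule changed sign under any alternative run. Among genes without a call, bach1b ranged from -0.50 to 0.15 and nfe2l3 from -0.33 to 0.03 when single libraries were left out. Replicate numbers did not pair the libraries: after group means were removed, the mean correlation was -0.00025 between libraries of the same number and 0.00031 between others, and 8 of 18 went best with their own number. With the replicate number as a block 38 genes were called, 34 of them among the 37.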
